A study of Homo sapiens with 47 samples.

Results

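The EPHA receptors described here are 8 genes, *EPHA1*, *EPHA2*, *EPHA3*, *EPHA4*, *EPHA5*, *EPHA7*, *EPHA8* and *EPHA10*, chosen by name out of 58051 genes quantified in every library. WA09 (H9), an established human embryonic stem cell (hESC) line, was carried through a differentiation to neuromesodermal progenitor (NMP)-like cells and then to mixed cultures of pre-neural progenitors (PNPs) and neural crest (NC). RNA-seq was made from 47 libraries, 35 of whole cultures and 12 of fractions, and the question followed here is which EPHA receptor was expressed at each time point and in each fraction. The t0 group is undifferentiated hESCs. The 36h group was kept for 36 h in N2B27 medium without vitamin A, with CHIR-99021 (a WNT pathway agonist), rhFGF2, AGN193109 (an inverse agonist of retinoic acid receptors) and Y-27632 (a ROCK inhibitor). P1 to P10 are successive passages in the same additives, which all groups but t0 therefore share. At P5 and P8, cultures were also split by selective detachment with TrypLE express into a fraction enriched for epithelial cells (EPI) and one enriched for mesenchymal cells (MES). Each group holds 3 libraries from 3 differentiation experiments, except P9 with 2, where replicate 3 was not analysed here. A replicate number names one experiment throughout. All libraries come from a single line, so the spread between replicates is that between experiments with this line.

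EPHA receptors are receptor tyrosine kinases that bind ephrin-A ligands, which are tethered to the surface of neighbouring cells by a lipid anchor. Contact between the receptor and the ligand signals into the receptor-bearing cell and, in reverse, into the ligand-bearing cell, and commonly leads to repulsion, boundary formation or changes in adhesion. In the embryo they are known for guiding axons and migrating neural crest and for keeping segments of the hindbrain and somites apart. *EPHA10* is a member with an altered kinase domain that is regarded as lacking catalytic activity. *EPHA4* is known for binding ephrin-B ligands as well as ephrin-A.

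Libraries summed to 13029491 counts at the shallowest (replicate 3 of P6) and 64082859 at the deepest (median 47292229). Replicates of every group differed by more than sampling noise, with a chi-square per degree of freedom of at least 32.7. Because RNA was taken from bulk cultures, fewer cells of a type and less RNA per cell cannot be told apart in any value given here. The labelled cell states were compared with summed normalized counts of marker genes. The sum over 6 pluripotency genes (*POU5F1*, *NANOG*, *PRDM14*, *DPPA4*, *TDGF1* and *ZFP42*) ran from 130180 to 136810 at t0 and from 815 to 1775 at P5. The sum over 8 neural crest and mesenchymal genes (*SOX10*, *SOX9*, *SNAI1*, *SNAI2*, *TFAP2A*, *TFAP2B*, *FOXD3* and *TWIST1*) ran from 3554 to 13334 in P5 EPI and from 19144 to 33200 in P5 MES, without overlap. At P8 it ran from 5450 to 44289 in EPI and from 13092 to 59249 in MES, so that this sum overlapped between the P8 fractions. Of the 8 genes, *SOX10* alone did not overlap at P8, at 19.5 to 76.8 in EPI and 171 to 502 in MES. *SOX9* and *FOXD3* had lower means in P8 MES than in P8 EPI. The EPI fractions held little of the epithelial cadherin transcript *CDH1*, with a mean of 7.33 normalized counts in P5 EPI and 39.1 in P8 EPI against 13695 at t0. *CDH1* is 1 of 7 epithelial and pre-neural genes listed. Their sum was 26562 to 41587 in P5 EPI against 5217 to 14712 in P5 MES. At P8 it overlapped, at 12639 to 39836 in EPI and 4848 to 27127 in MES. The paper describes the SOX2 and CDX2 positive colonies as epithelial from tagged ZO1 at tight junctions.

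The members lie on 6 chromosomes (GENCODE 29, GRCh38). *EPHA1* (ENSG00000146904) is at chr7:143390289-143408892 on the minus strand and *EPHA2* (ENSG00000142627) at chr1:16124337-16156087 on the minus strand. *EPHA3* (ENSG00000044524) is at chr3:89107524-89482134 on the plus strand and *EPHA4* (ENSG00000116106) at chr2:221418027-221574202 on the minus strand. *EPHA5* (ENSG00000145242) is at chr4:65319563-65670495 and *EPHA7* (ENSG00000135333) at chr6:93240020-93419547, both on the minus strand. *EPHA8* (ENSG00000070886) is at chr1:22563564-22603594 on the plus strand and *EPHA10* (ENSG00000183317) at chr1:37713880-37765133 on the minus strand. Whether the counting used strand is not given in the sources used here, so reads of genes on the opposite strand may enter. The one with the most counts is *ZYX*, which overlaps *EPHA1*, and the others had a mean of at most 116 counts. In the 38 libraries after P1 and of the fractions, *ZYX* had 1792 to 12394 counts while *EPHA1* had 0 to 42.

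The upstream sequences of *EPHA1*, the leading receptor of hESCs, and of *EPHA4*, the leading receptor afterwards, are shown because these members went in opposite directions. Each is the 250 bases before a RefSeq start site (GRCh38.p14), written 5′ to 3′ along the gene's own strand, with each CpG in capitals. The first window is chr7:143408857-143409106, the second chr2:221574203-221574452 and the third, before another *EPHA4* start, chr2:221572305-221572554, all on the minus strand.
EPHA1: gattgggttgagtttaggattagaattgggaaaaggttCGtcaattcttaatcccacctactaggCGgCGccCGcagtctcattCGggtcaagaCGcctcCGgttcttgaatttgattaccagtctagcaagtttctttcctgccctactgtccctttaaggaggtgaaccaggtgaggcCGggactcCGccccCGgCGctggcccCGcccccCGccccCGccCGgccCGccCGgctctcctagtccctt
EPHA4, outer start: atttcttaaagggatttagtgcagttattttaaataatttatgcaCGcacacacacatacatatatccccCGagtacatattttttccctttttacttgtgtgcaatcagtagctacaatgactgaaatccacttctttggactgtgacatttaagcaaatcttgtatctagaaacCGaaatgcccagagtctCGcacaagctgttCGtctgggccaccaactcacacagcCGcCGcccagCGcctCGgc
EPHA4, inner start: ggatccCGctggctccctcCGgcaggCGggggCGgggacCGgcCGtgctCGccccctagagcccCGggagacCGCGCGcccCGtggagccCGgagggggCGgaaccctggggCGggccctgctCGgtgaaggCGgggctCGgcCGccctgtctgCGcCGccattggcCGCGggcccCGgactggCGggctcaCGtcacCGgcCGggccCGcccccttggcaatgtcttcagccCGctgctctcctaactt

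The *EPHA1* window holds 17 CpG at 59.2% GC. The outer *EPHA4* window, at the annotated gene start, holds 9 CpG at 43.2% GC, and the inner one 30 CpG at 78.0% GC. Over 35116 RefSeq promoter windows of this length the median was 11 CpG and 58.0% GC. Of the members 7 had such a window, in 11 windows. The windows nearest the annotated starts of *EPHA2*, *EPHA3*, *EPHA5*, *EPHA7* and *EPHA8* hold 15, 15, 14, 19 and 42 CpG. Searched on both strands, none of the 3 windows printed contains the octamer motif ATGCAAAT, the TCF/LEF motifs CTTTGAA and CTTTGAT, the CDX motif TTTATNG or the TATA box TATAAA. Of all promoter windows, 1.63%, 3.8%, 2.26%, 8.93% and 10.72% contain them, in that order. A missing match says only that these letters are not in these windows.

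Compared per transcript length as deposited TPM (transcript abundance scaled by length and by the library's total), *EPHA1* was the most abundant EPHA receptor in 4 of 47 libraries, *EPHA4* in 40 and *EPHA2* in 3. *EPHA1* led in all 3 t0 libraries and in replicate 1 of 36h, and *EPHA2* led in replicate 1 of P1, replicate 2 of P9 and replicate 3 of P10. *EPHA4* led in all others, including every fraction library. The EPHA1 share of the summed EPHA TPM was 73.2% ± 3.23 (SD, n = 3) at t0, 22.6% ± 17.3 at 36h, 6.94% ± 10.2 at P1 and 0.0301% ± 0.0115 at P5. At 36h it was 40.0%, 22.6% and 5.30% in replicates 1, 2 and 3, and at P1 it was 18.7%, 0.992% and 1.161%. In the 38 libraries after P1 and of the fractions it lay between 0% and 0.287%. *EPHA2*, *EPHA3* and *EPHA4* together made up 74.8% to 99.5% of the summed TPM in those libraries. The summed TPM was 151 ± 6.99 at t0, 190 ± 74.0 at 36h, 118 ± 48.1 at P1 and 326 ± 24.9 at P5, with no overlap between t0 and P5.

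**Figure D1:**
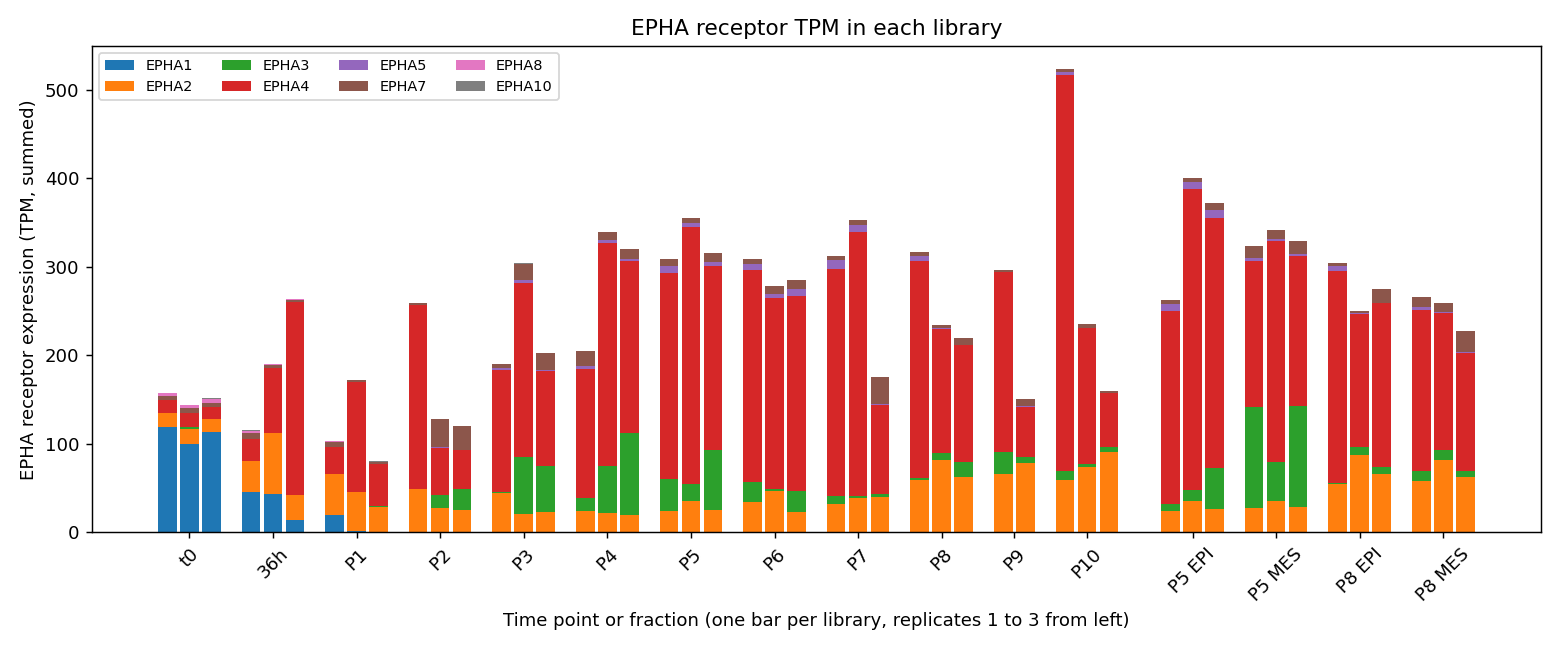
Summed TPM of the 8 EPHA receptors (vertical axis) in each library, 1 bar per library grouped by time point or fraction, with colours for the receptors. *EPHA1* makes up most of each t0 bar, from 69.5% to 75.1%, and at most 0.287% of any bar after P1, where *EPHA4* is the largest part of all bars but replicate 2 of P9 and replicate 3 of P10.

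Levels of a single gene are given below as normalized counts, which are deposited estimated counts scaled for library size and composition. A gene was called changed in a comparison at an adjusted p under 0.01, at least a 2-fold change and 100 or more normalized counts on average over the compared libraries (edgeR quasi-likelihood test with Benjamini-Hochberg adjustment over all genes tested). Changes are log2 fold changes with standard errors (SE). For edgeR the SE was derived from the test, as the absolute change over the square root of its F statistic. For DESeq2 it is the tool's own estimate. Against t0, 45 of the pairs of member and time point were called. At 36 h 1 member was called, where 2.71% of 21750 genes were. At P1 3 members were called with 8.79% of genes, at P2 4 with 12.8%, at P3 5 with 13.6%, at P4 5 with 14% and at P5 5 with 14.3%. At P6 4 were called with 14.6%, at P7 5 with 15.2%, at P8 5 with 15.4%, at P9 4 with 19.7% and at P10 4 with 18.3%. These comparisons share the 3 t0 libraries. *EPHA1* and *EPHA8* were called lower at 10 of 11 time points each, all but 36 h. *EPHA4* was called higher at 9 time points, from P2 on, *EPHA2* at 7, *EPHA5* at 6 and *EPHA3* at 3. *EPHA7* and *EPHA10* were called at none. Leaving out replicate 1, 2 or 3 gave 46, 23 and 28 called pairs. Over all genes, 2633, 459 and 754 were then called at P1, against 1912 in the main fit. At P5 these were 3262, 1947 and 2131 against 3107, and at P10 4433, 2788 and 2873 against 3978. *EPHA4* was then called at 9, 0 and 6 time points, *EPHA3* at 5, 0 and 0, *EPHA5* at 5, 4 and 1, and *EPHA2* at 6, 3 and 3. *EPHA1* was called at 10, 9 and 9 and *EPHA8* at 10, 7 and 9, while *EPHA7* was called at 1, 0 and 0.

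*EPHA1* is the receptor that carried most EPHA transcript in hESCs. Its normalized counts at t0 were 7535, 6581 and 7391 in replicates 1, 2 and 3. At 36h they were 3074, 3049.8 and 979, at P1 1169, 86.8 and 53.7, and at P2 33.3, 19.1 and 10.2. All 36h libraries lay below all t0 libraries, and all P2 libraries below all P1 libraries, while replicate 1 of P1 stood far above the other two and overlapped with replicate 3 of 36h. The change at 36 h was −1.72 (SE 0.75, adjusted p = 0.144) and was not called. From 36 h to P1 it was −2.72 (SE 0.80, adjusted p = 0.0366), and no member was called in that comparison, where 1.19% of genes were. Without replicate 1 of P1 the same change was −5.00 (SE 0.76, adjusted p = 0.000113) and was called. That library also held more pluripotency transcript, with a marker sum of 52029 against 9932 and 8188 in the other two, and the part of this in the *EPHA1* level was not tested. Against t0, *EPHA1* fell by 4.44 at P1 (SE 0.86, adjusted p = 0.0004) and fell by 8.50 at P2 (SE 1.03, adjusted p = 9.67e-07). The P1 call was lost without replicate 2 (adjusted p = 0.0444) or replicate 3 (adjusted p = 0.0304), and the P2 call held without any one replicate. From P6 on and in the fractions it stayed at 0 to 19.9 normalized counts. At P6, where no library had more than 3 counts, it was at least 1436-fold lower than at t0, taking 3 counts per library as the floor.

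*EPHA4*, a receptor known from hindbrain, spinal cord and migrating crest, took the place of *EPHA1* at the top of the order. Its normalized counts were 1237, 1408 and 1394 at t0, and 1804, 6309 and 18495 at 36h. At P1 they were 2147, 10006 and 3884, and at P5 17586, 22476 and 15979. Every 36h, P1 and P5 library lay above every t0 library, and 36h and P1 overlapped. The 3 experiments differed 10.25-fold from lowest to highest at 36h, and only 1.14-fold at t0. At 36 h the change was +2.88 (SE 0.76, adjusted p = 0.0135) and missed the threshold. Left-out replicates moved it from +1.63 without replicate 3 (adjusted p = 0.395) to +3.28 without replicate 1 (adjusted p = 0.00202), where it was called. At P2 it rose by 2.58 against t0 (SE 0.75, adjusted p = 0.0077). At P5 it had risen by 3.83 against t0 (SE 0.79, adjusted p = 0.000343). The P2 call was lost without any one of the 3 replicates (adjusted p from 0.0208 to 0.0585). At P2 *EPHA4* was at 17884, 4432 and 3749, and replicate 1, which stood apart from the others over all genes, was highest. Without replicate 1 the P2 change was +1.56 (SE 0.54, adjusted p = 0.0295). That library also held the highest NMP and early mesoderm sum, over 6 genes, at 40060 against 11564 and 6375, and was highest for 5 of them. Its epithelial and pre-neural sum, over 7 genes, was 24441 against 5350 and 5579. Of these 7 it was highest for 3 and lowest for 2. *CDX2*, at 16867, 3160 and 2466, and *NKX1-2*, at 5085, 255 and 36.4, made up most of its sum. *FGFR2* was at 289, 476 and 659 and *SOX2* at 2085, 1337 and 2329. The part of these marker levels was not tested. The P5 call was lost without replicate 2, with a change of +3.73 (SE 1.07, adjusted p = 0.0205), and held without replicate 1 or replicate 3. The *EPHA4* to *EPHA1* ratio of TPM was 0.119, 0.163 and 0.12 at t0 and 0.528, 1.71 and 15.6 at 36h in replicates 1, 2 and 3. At P1 it was 1.61, 72.5 and 50.6. The order of the pair therefore turned by 36 h in replicates 2 and 3, and by P1 in replicate 1. The pluripotency marker sum at 36h was 89659, 70269 and 36732, highest in the replicate with the lowest ratio and lowest in that with the highest. In the same order were the epithelial and pre-neural sum (33406, 32543 and 15167), the neuron sum (9058, 8368 and 6628) and the endothelium sum (9323.5, 9094 and 4641). Gene by gene, 5 of 6 pluripotency genes, 3 of 7 epithelial and pre-neural genes, 1 of 3 endothelium genes and none of 3 neuron genes had this order. Of the epithelial and pre-neural genes, 1 had the order of *EPHA4*, *CDX2* at 976, 5781 and 8374. The endothelium sum was nearly all *KDR*, at 9311, 9088 and 4637, with *CDH5* and *PECAM1* at 9.82 or less. Sums that ran the other way, in step with *EPHA4*, were those of 8 neural crest and mesenchymal genes, at 2079, 3471 and 9715, and of 3 endoderm genes, at 429.8, 1038 and 3204. Of the 8 crest and mesenchymal genes, 2 had the replicate order of *EPHA4*, *SNAI1* at 314, 1235 and 5356 and *SNAI2* at 115, 641 and 3458. In the opposite order were *SOX10*, at 104, 36.9 and 14.2, and *FOXD3*, at 33.2, 12.7 and 0. *SOX9* was at 1475, 1533 and 857 and *TFAP2B* at 19.6, 0 and 0, and *TWIST1* and *TFAP2A* were at 21.7 or less. Of the endoderm genes, *GATA6* was at 1.23, 908 and 3194 and *FOXA2* in the opposite order at 429, 129 and 10.8, while *SOX17* had 0 counts in all 3 libraries. Of the 6 NMP and early mesoderm genes, whose sum was 43254, 134430 and 114400, 3 had the order of *EPHA4*, *CDX1* at 1677.5, 5236 and 8308, *TBX6* at 263, 1758 and 10399 and *MSGN1* at 7.37, 1374 and 5687. The part of these marker levels in the *EPHA4* level and the ratio was not tested. At P10 *EPHA4* was at 35497, 12413 and 5145, with replicate 1 highest. That library also held the highest epithelial and pre-neural marker sum, over 7 genes, at 23909 against 1096 and 2336. Across the P10 libraries the neural crest and mesenchymal sum ran from 10670 to 51139 and the neuron sum from 4611.5 to 19848. The part of these differences was not tested.

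*EPHA2* is a receptor known from epithelia and from pluripotent cells. It was at 1512, 1615 and 1373 normalized counts at t0 and at 3130.4, 6957 and 2789.7 at 36h. All 36h libraries lay above all t0 libraries. It was the one member called at 36 h, rising by 1.48 (SE 0.32, adjusted p = 0.00373), but the call was lost when replicate 2 or replicate 3 was left out, or when only the compared libraries were fitted. From P3 to P6 *EPHA2* was at 1501 to 4070.5, overlapping with 36h, and those groups were not called against t0. At P8 it was at 4923, 7242 and 5427 and at P10 at 5066, 6618 and 8319, above all t0 libraries. It rose by 1.99 at P8 (SE 0.33, adjusted p = 2.8e-05) and by 2.21 at P10 (SE 0.33, adjusted p = 6.55e-06) against t0.

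**Figure D2:**
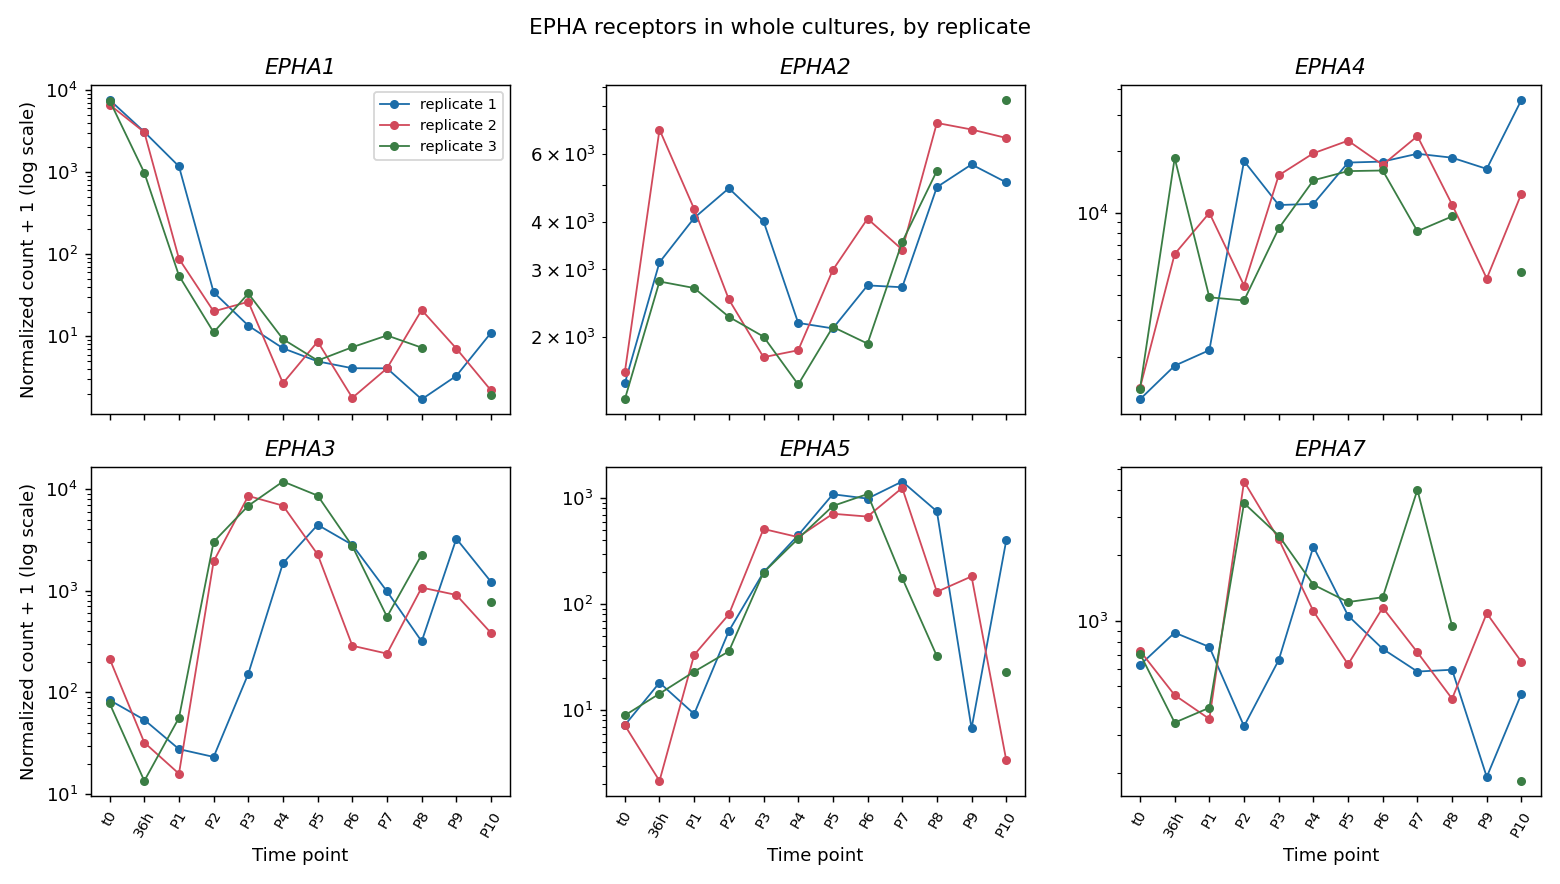
Normalized count + 1 on a log axis (vertical) against time point from t0 to P10 (horizontal) in whole cultures for 6 EPHA receptors, 1 panel each, with 1 line per replicate. *EPHA1* drops from 6581 or more at t0 to 33.3 or less at P2, while *EPHA3*, at most 213 up to P1, reaches 1865 to 11837 at P4 and the replicates lie apart at P2 and P3.

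*EPHA3*, a receptor known from mesenchyme and paraxial mesoderm, was low early and higher during passaging. It was at 26.7, 14.9 and 55.3 normalized counts at P1, at 22.2, 1944 and 3023 at P2, and at 152, 8540.0 and 6839 at P3. At P5 it was at 4437, 2269 and 8602. All P5 libraries lay above all P1 libraries, and replicate 1 was still below the others at P4, with 1865 against 6848 and 11837. Replicate 1 stood apart from the other two over all genes at P2 and P3. The root mean square log2 difference over 13297 genes was 0.92 and 1.07 at P2 and 0.82 and 0.865 at P3, against 0.472 and 0.423 between replicates 2 and 3. A sum over 4 paraxial mesoderm genes (*MEOX1*, *TCF15*, *PAX3* and *FOXC2*) was 2472, 4612 and 6833 at P2 and 14844, 2393 and 1779.9 at P3 in replicates 1, 2 and 3. At P2 *PAX3* was highest in replicate 1, at 2196, 775 and 1019. The others were lowest there, *MEOX1* at 19.1, 1079 and 2687, *FOXC2* at 206, 2204 and 2465 and *TCF15* at 51.6, 554 and 662. At P3 replicate 1 was highest for all 4. The neural crest and mesenchymal sum was 8411, 5061 and 8375 at P2 and 5141, 12811 and 14280 at P3. Within that list *TWIST1*, a mesenchymal transcription factor, was at 32.5, 1654 and 2635 at P2 and at 144.9, 5423 and 7363 at P3, lowest in replicate 1 as *EPHA3* was. Replicate 1 was lowest for 4 of the 8 genes and highest for the other 4 at P2, among them *SNAI1* (2402, 387 and 324) and *SNAI2* (5242, 1887 and 1803). At P3 it was lowest for 5 of the 8, and *SNAI1* was at 1135, 1109 and 1123. The part of these differences in the *EPHA3* and *EPHA7* levels was not tested. *EPHA5*, a receptor known from neurons, was at 8.22, 32.2 and 22.1 at P1 and at 1087, 711 and 843 at P5, again without overlap. From P1 to P5, 3 members were called where 4% of genes were: *EPHA1* fell by 6.01 (SE 1.05, adjusted p = 0.000447), *EPHA3* rose by 7.27 (SE 1.51, adjusted p = 0.00192) and *EPHA5* rose by 5.27 (SE 1.28, adjusted p = 0.00626). Without replicate 1 of P1 only *EPHA3* was called. The *EPHA1* change was then −3.74 (adjusted p = 0.00194) with a mean under 100, and that of *EPHA5* +4.80 (adjusted p = 0.0256). Without replicate 1 of every group 2 members were called, and without replicate 2 or replicate 3 none. Over all genes 1232, 105 and 107 were called without replicate 1, 2 or 3, against 871 in the main fit.

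After P5 no change of *EPHA3* or *EPHA5* between the passages compared was called. *EPHA3* was at 316, 1072 and 2258 at P8 and at 1221, 383 and 778 at P10, with overlap. *EPHA5* was at 749.95, 129.8 and 31.4 at P8 and at 398, 2.38 and 22.0 at P10, with replicate 1 highest in both. No member was called from P5 to P8, where 0.0092% of genes were, from P8 to P9 with 1.22% of genes, or from P8 to P10 with 0.0874%. From P5 to P8 *EPHA2* changed by +1.26 (SE 0.32, adjusted p = 0.0765), with every P8 library above every P5 library, and DESeq2 called it.

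*EPHA7*, a receptor known from the neural tube, had no called change against t0. It was at 626, 727 and 705 at t0, at 327, 4367 and 3472 at P2, and at 659, 2371 and 2465 at P3. At P2 replicates 2 and 3 lay above every t0 library and replicate 1 below all of them, as for *EPHA3*. *EPHA8* was at 212, 211 and 246 at t0, at 151, 51.9 and 30.0 at 36h and at 28.8, 4.96 and 1.58 at P1. After P2 it had at most 2 counts in whole-culture libraries other than those of P8, and at P5 it was at least 77.1-fold lower than at t0 against a floor of 3 counts per library. *EPHA10* was low throughout, at 38.4, 45.6 and 46.8 at t0, with at most 5 counts in any library after P1, and it could not be called because its mean stayed under 100. *EPHA8* and *EPHA10* had too few counts to be tested in the fractions.

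The fractions were compared to ask which EPHA receptors differ between epithelial-enriched and mesenchymal-enriched cells. At P5, *EPHA3* was at 1028, 1508 and 5837 in EPI and at 14073, 5595 and 15205 in MES. MES was higher in 3 of 3 cultures, although the groups overlapped through replicate 3 of EPI and replicate 2 of MES. *EPHA7* was at 664, 636 and 1054 in EPI and at 1755, 1317 and 1926 in MES, without overlap. *EPHA5* was at 1107, 962 and 1245 in EPI and at 438, 308 and 203 in MES, also without overlap. *EPHA4* was at 17041, 26152 and 21857 in EPI and at 13029, 19591 and 13629 in MES, lower in MES in 3 of 3 cultures but overlapping.

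Not one of the 6 members tested was called between the P5 fractions, and neither was any of the 18885 genes tested (0%), although 4894 genes had an unadjusted p under 0.05 in edgeR. The MES against EPI change was +2.34 for *EPHA3* (SE 0.78, adjusted p = 0.103), +1.156 for *EPHA7* (SE 0.36, adjusted p = 0.0872), −2.00 for *EPHA5* (SE 0.56, adjusted p = 0.0645) and −0.49 for *EPHA4* (SE 0.22, adjusted p = 0.201). The *EPHA3* change was +1.54 without replicate 1 (adjusted p = 0.263) and +3.09 without replicate 3 (adjusted p = 0.171). This fit holds 1 block per experiment over both passages. With the block set within each passage, an alternative chosen after seeing the data, 305 genes were called, among them *EPHA5* at −1.84 (SE 0.25, adjusted p = 0.0067). DESeq2 called 674 genes, among them *EPHA5* at −2.02 (SE 0.52, adjusted p = 0.00174). The paper, also with DESeq2 and at like thresholds, reports genes higher in each of these fractions. The absence of calls therefore holds for the main fit and not for every fit. The neural crest and mesenchymal marker sum, given above, was higher in P5 MES in the same libraries, and the 7-gene epithelial and pre-neural sum was 26562 to 41587 in EPI against 5217 to 14712 in MES. Also without overlap, the neuron sum was 7538 to 11646 in EPI against 3205 to 6395 in MES, the paraxial mesoderm sum 4262 to 7410.1 against 1999 to 3425, and the pluripotency sum 658 to 1344 against 1403 to 2577. The neuron sum was mostly *TUBB3*, with means of 8862 in EPI and 4535 in MES. *DCX* (137 and 313) and *ELAVL4* (35.1 and 66.9) had higher means in MES. The paraxial mesoderm sum was mostly *PAX3*, with means of 5402 in EPI and 2623.5 in MES. *MEOX1* was at 24.0 and 38.0, *FOXC2* at 21.0 and 19.0 and *TCF15* at 16.7 and 14.4. The NMP and early mesoderm sum (459 to 1369 against 355 to 2413), the neural maturation sum (50.7 to 497 against 34.8 to 266) and the endothelium sum (27.7 to 42.1 against 25.2 to 35.01) overlapped, and the endoderm sum was at most 3.17. The part of cell mixture in these receptor differences was not tested.

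At P8, *EPHA7* was at 488, 387 and 2185 in EPI and at 1401, 1362 and 3191 in MES, higher in MES in 3 of 3 cultures, with overlap between the groups. *EPHA3* was at 176, 1115 and 1032 in EPI and at 1499.8, 1397 and 812 in MES, higher in 2 of 3 cultures. *EPHA5* was at 759, 149 and 79.3 in EPI and at 504, 133 and 87.9 in MES, with replicate 1 highest in both. No member was called, nor any gene (0%), with 2261 genes at an unadjusted p under 0.05 in edgeR and 55 genes called by DESeq2. The *EPHA7* change was +1.18 (SE 0.37, adjusted p = 0.317). The difference of the MES against EPI change between P8 and P5 was called for no member and no gene (0%), with 1152 genes at an unadjusted p under 0.05 in edgeR and 1 gene called by DESeq2. For *EPHA5* that difference was +1.70 (SE 0.78, adjusted p = 0.818).

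**Figure D3:**
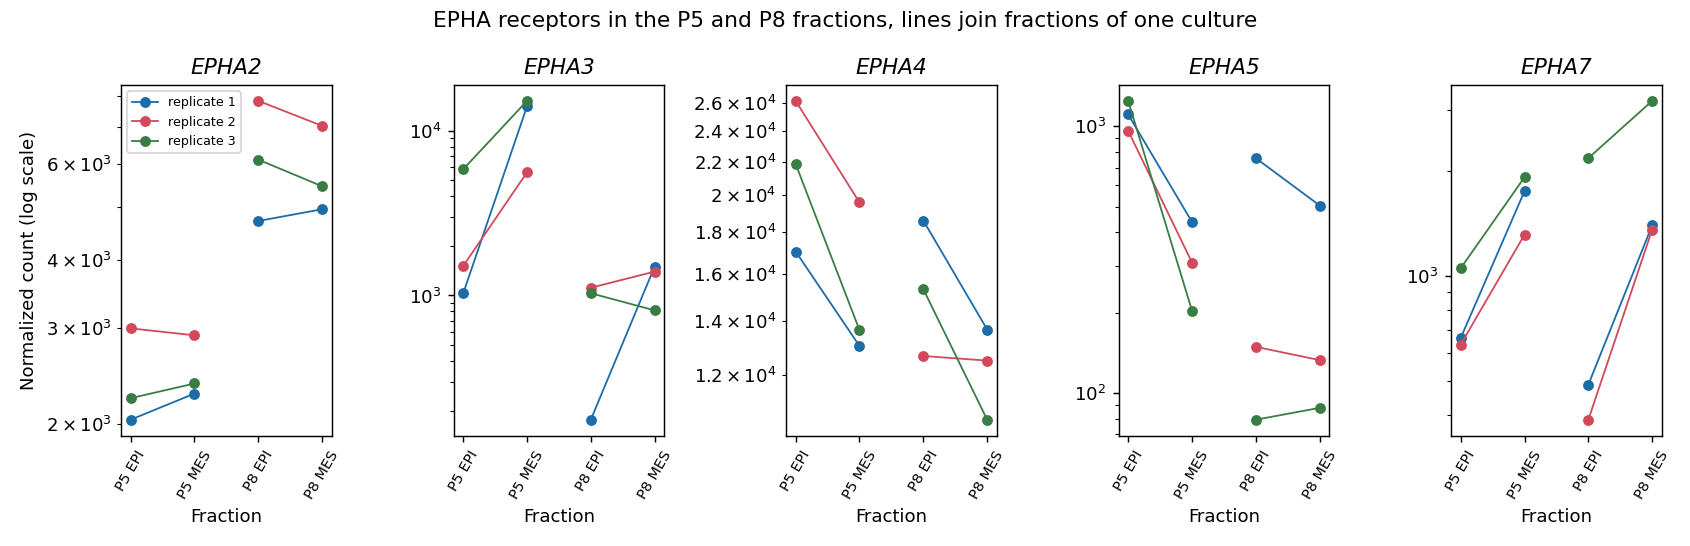
Normalized count on a log axis (vertical) of 5 EPHA receptors in the P5 and P8 EPI and MES fractions (horizontal), with lines joining the 2 fractions of each culture. *EPHA2* lies at 2039 to 2998 in the P5 fractions and at 4714 to 7822 in the P8 fractions, while *EPHA7* is higher in MES in every culture.

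Between passages, *EPHA2* was the member that was called within each fraction. It was at 2039, 2998 and 2233 in P5 EPI and at 4714, 7822 and 6106 in P8 EPI. In MES it was at 2277, 2910.4 and 2376 at P5 and at 4953, 7040 and 5457 at P8. All P8 libraries lay above all P5 libraries in both fractions. It rose by 1.33 in EPI (SE 0.08, adjusted p = 0.000522), where 0.259% of genes were called, and by 1.17 in MES (SE 0.08, adjusted p = 0.00149), where 0.699% were, in 3 of 3 experiments each. Without the replicate block the adjusted p was 0.0573 and 0.0462, and neither was called, nor was either without replicate 2 or without replicate 3. Both calls were also lost with only the compared libraries fitted and with all 47 libraries in the fit. The pluripotency marker sum was lower at P8 without overlap, at 121 to 413 against 658 to 1344 in EPI and at 219 to 759.98 against 1403 to 2577 in MES. The paraxial mesoderm sum, mostly *PAX3*, was higher at P8 without overlap in MES, at 6639 to 8763 against 1999 to 3425, and overlapped in EPI, at 7119 to 11605 against 4262 to 7410.1. In MES the mean of *PAX3* was 2623.5 at P5 and 7448 at P8. Its other genes stayed low in MES, with means at P5 and P8 of 38.0 and 143 for *MEOX1*, 19.0 and 22.2 for *FOXC2* and 14.4 and 10.6 for *TCF15*. The part of these sums in the *EPHA2* change was not tested. *EPHA3* was lower at P8 than at P5 in 3 of 3 experiments in both fractions, by −3.14 in MES (SE 0.80, adjusted p = 0.0412) and −1.73 in EPI (SE 0.77, adjusted p = 0.166), which missed the threshold. Without replicate 2 the EPI change was −2.52, and without replicate 3 −1.10. *EPHA5* in EPI changed by −2.45 (SE 0.59, adjusted p = 0.0407), lower in 3 of 3 experiments and also not called, but was called without replicate 1, at −3.41 (adjusted p = 0.00582).

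The ephrin-A ligands were compared from t0 to 36 h, 36 h to P1, P1 to P5, P5 to P8, P8 to P9 and P8 to P10. They were also compared between and within the fractions. None of 5 was called in any of these comparisons, and P2 was not among the groups compared. *EFNA5* had the highest group mean of the 5 on the normalized count scale in every group, at 782 ± 73.0 at t0, 1632 ± 456 at P5 and 2720 ± 1752 at P8 (SD, n = 3). It was at 1227 ± 408 in P5 EPI and 2699 ± 521 in P5 MES, and at 2197 ± 1521 in P8 EPI and 4286 ± 1152 in P8 MES. *EFNA4* stayed between 551 and 1181 and *EFNA2* between 179 and 334 in group means. *EFNA1* was highest at P2, at 541 ± 345, and *EFNA3* at 1152 ± 613 in the same group, both with replicates far apart. Of 3 ephrin-B ligands, *EFNB1* rose at 36 h by 1.44 (SE 0.34, adjusted p = 0.00673), where 1.33% of genes were called higher, and *EFNB2*, which *EPHA4* can bind, rose from P1 to P5 by 1.98 (SE 0.48, adjusted p = 0.00588), where 2.15% were. *EFNB2* was at 913 ± 163 at t0 and at 13459 ± 5794 at P5.

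**Figure D4:**
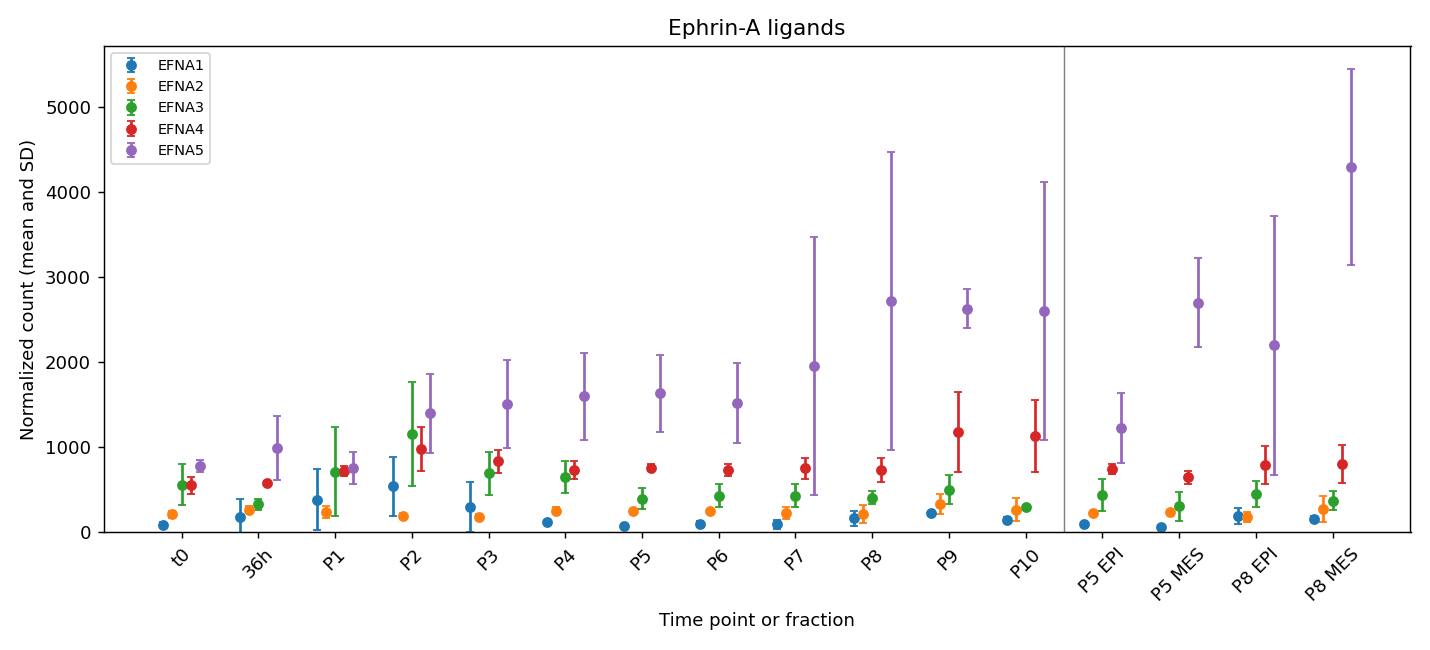
Normalized counts (vertical, group mean with SD) of the 5 ephrin-A ligands at each time point and in each fraction (horizontal), with a line between whole cultures and fractions. *EFNA5* is at 782 at t0 and 4286 in P8 MES, and the other ligands have group means of 1181 or less.

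None of 6 other Eph receptors (*EPHA6* and *EPHB1* to *EPHB4* and *EPHB6*) was called in these comparisons. Of 14 genes for signalling partners, 1 rose and 1 fell at 36 h, where 1.33% of all genes were called higher and 1.37% lower. These were *TIAM1*, an exchange factor for RAC, at +1.18 (adjusted p = 0.00148), and *VAV3* at −1.83 (adjusted p = 0.00159). *GRB7*, an adaptor protein, fell by 2.84 from 36 h to P1 (adjusted p = 0.00982), where 0.699% of genes were called lower. From P8 to P9 the adaptor *NCK2* rose by 1.09 (adjusted p = 0.00562) and *VAV3* by 1.86 (adjusted p = 0.00628), where 0.887% of genes were called higher. Each of these partner calls, and those of *EFNB1* and *EFNB2*, was lost without replicate 2, without replicate 3 and with only the compared libraries fitted. Without the replicate block *GRB7* (adjusted p = 0.024), *NCK2* (adjusted p = 0.0283) and *VAV3* at P9 (adjusted p = 0.023) were not called either. The median change of the members tested was −0.66 at 36 h, −0.52 from 36 h to P1 and +0.36 from P1 to P5, beside medians over all genes of 0.00, −0.01 and −0.01.

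The genes whose pattern was most like a member's were found by Pearson's r of log2 CPM over the 16 group means, among 13297 genes. The points share libraries within an experiment and no p is given. For *EPHA1* they were *GABRA5* (r = 0.990), *CNMD* (r = 0.989) and AC106864.1 (r = 0.988). For *EPHA4* they were *SLK* (r = 0.968), *ZNF664* (r = 0.955) and *NAIP* (r = 0.955). For *EPHA3* they were *VCAM1* (r = 0.971), *PCDH7* (r = 0.97) and *MYOCD* (r = 0.962), and for *EPHA2* *CDKN1A* (r = 0.954), *CNEP1R1* (r = 0.95) and *ELF1* (r = 0.936). For *EPHA7* the values were lower, with *UTRN* (r = 0.838), *ADGRG6* (r = 0.825) and *METRN* (r = 0.824). Among the members themselves, *EPHA1* and *EPHA4* had an r of −0.87 and *EPHA4* and *EPHA5* one of 0.84 over the same groups.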

How the data were processed

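Gene-level RSEM results of 47 polyA-selected libraries (75 bp single-end reads) were used. Per the submitters' processing notes and the labels, reads were handled with cutadapt 1.16, STAR 2.5.2b and RSEM 1.3.0 on GRCh38. The annotation release and strand setting are not given in the sources used here. The authors deposited estimated counts (expected counts) per gene, not normalized, and TPM, which is scaled by transcript length and depth. Estimated counts were rounded to whole numbers, since 9.33% of values were not whole. Symbols and coordinates came from GENCODE 29.

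Normalized counts are rounded counts divided by TMM-scaled library sizes over all 47 libraries, set to a geometric mean of 1. edgeR 4.0.16 (R 4.3.3, limma 3.58.1) was run with filterByExpr, the group and the replicate number as a block, in 1 fit of the 35 whole-culture libraries (21750 genes) and 1 fit of the 12 fraction libraries (18885 genes). The thresholds follow the study's methods (adjusted p under 0.01, at least 2-fold, mean at least 100). The labels say that 1 experiment gave all time points and fractions of a number, so the numbers pair the samples. Deviations from group means over 13297 genes correlated at 0.649 between same-numbered P5 fractions, and at −0.007 between 36h and t0. The mean correlation of same-numbered libraries was 0.777 between the P8 fractions, 0.307 between P8 and P5 and 0.206 between P1 and 36h. It was −0.02 between P5 and P1 and 0.01 between P9 and P8. Against t0 it lay between −0.042 (P9) and 0.111 (P8), so pairing was weak in many time comparisons. The fitting code was tested on simulated counts with the same dispersion for every gene and no replicate effect. That checks the code only, not the replicate block or the calls. Alternatives were DESeq2 1.42.0, other size factors and filters, other sets of libraries and leaving out replicates. Total counts of 13029491 to 64082859 make counting error small beside replicate spread, except for members with a few counts, and floors cover counting error only.

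The members and gene lists were chosen with earlier results of these data known. Named genes are all members, all ephrin-A ligands, the other pathway genes called, and the 3 genes most like *EPHA1*, *EPHA2*, *EPHA3*, *EPHA4* and *EPHA7*. Sums over every marker list are given for the P5 fractions, and over some lists beside other results.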

Additional observations from a re-analysis of the deposited data

How the results depend on the processing

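Each comparison was recomputed under other settings, 1 choice at a time. Of 311 values for single members in 25 pairs of member and comparison, none reversed its direction, 272 kept their side of the threshold, 24 lost a call and 15 gained one. The number of members called at 36 h (main value 1) was 2 with DESeq2, with an adjusted p under 0.05 and with all 47 libraries in the fit, 0 with only the compared libraries, and 0 to 2 when leaving out 1 replicate. From 36 h to P1 (main 0) it was 1 with an adjusted p under 0.05 and without replicate 1 of P1, and 0 to 1 leaving out a replicate. From P1 to P5 (main 3) it was 1 with only the compared libraries and without replicate 1 of P1, and 0 to 2 leaving out a replicate. From P5 to P8 (main 0) DESeq2 called 1. The pairs called against t0 (main 45) numbered 23 to 46 leaving out a replicate. Between the P5 fractions (main 0) it was 1 with DESeq2 and 1 with the replicate block within passage. From P5 to P8, in EPI and in MES alike (main 1 each), it was 2 with DESeq2 and with an adjusted p under 0.05, and 0 with no replicate block, with all 47 libraries and with only the compared libraries, with 0 to 2 in EPI and 0 to 1 in MES leaving out a replicate. The EPHA1 share taken over counts not divided by length was 64.5% at t0, 0.0184% at P5 and 0.0302% in P5 EPI. Genes called over the whole table moved by over 1.5 times under several settings, for example between the P5 fractions from 0 to 674 with DESeq2, and in EPI between passages from 49 to 0 with no replicate block. The cause was not tested. Leaving out replicate 1 moved the genes called at 36 h from 589 to 891, and leaving out replicate 2 or 3 to 83 and 92. From 36 h to P1 the number moved from 259 to 955 without replicate 1, and to 2 and 12 without replicate 2 or 3. With 3 libraries a group, leaving 1 out gives few degrees of freedom.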
